A study of Mus musculus with 15 samples.

Results

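The genes described here are 10 members of the fibroblast growth factor (FGF) system of the mouse: the ligands Fgf2, Fgf8, Fgf9, Fgf15, Fgf17 and Fgf18, the intracellular FGF homologous factor Fgf13, and the receptors Fgfr1, Fgfr2 and Fgfr3. They were taken as a named list, with earlier results of these data known, from the 53337 genes to which the transcript values could be summed, and all 10 were found. Levels were measured by mRNA sequencing of C57BL/6J dorsal forebrain, the precursor of the cortex, at embryonic day 18. The offspring were those of dams infused with arginine vasopressin (AVP), as a model of preeclampsia, or with saline as the control. The groups held 4 AVP-exposed males, 4 saline males, 3 AVP-exposed females and 4 saline females. The paper left out a further AVP-exposed female as an outlier of high variance. The infusion was given to the dam, from before breeding and through gestation, and the labels give 8 litters for the whole set without tying the 15 libraries to them. Males and females therefore shared litters, and comparisons that join the sexes treat all libraries as independent. Values are TPM, a unit of relative transcript abundance that scales each transcript to its length and each library to the same total. It lets levels of different genes be set side by side, but it does not hold the sequencing depth of each library.

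FGF ligands are mostly secreted proteins that bind, with heparan sulphate, to the extracellular immunoglobulin domains of FGF receptors. Receptor dimers then activate a tyrosine kinase and, through adaptors such as Frs2, the MAP kinase cascade, which turns on ETS factors and feedback inhibitors such as the Sprouty genes. In the early forebrain Fgf8, Fgf17, Fgf18 and Fgf15 are made at the anterior midline, where the first 3 promote and Fgf15 opposes frontal cortical identity and growth. Later, Fgf2 and Fgf9 act on cortical progenitors, which carry the receptors. Fgf13 is not secreted: it binds microtubules and voltage-gated sodium channels inside neurons.

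Fgf13 was the highest of the 10 genes and Fgf8 the lowest. Across all 15 libraries the mean was 123 ± 20.1 TPM (SD) for Fgf13, 56.6 ± 15.1 TPM for Fgfr1, 26.3 ± 3.73 TPM for Fgfr2 and 21.7 ± 6.99 TPM for Fgfr3. Secreted ligands were far lower, with means of 4.45 ± 1.58 TPM for Fgf9, 2.97 ± 0.626 TPM for Fgf18, 0.892 ± 1.49 TPM for Fgf15, 0.678 ± 0.414 TPM for Fgf2, 0.267 ± 0.112 TPM for Fgf17 and 0.166 ± 0.176 TPM for Fgf8. The order of neighbours held in 15 of 15 libraries for Fgf13 over Fgfr1, for Fgfr1 over Fgfr2 and for Fgfr3 over Fgf9. It was less regular for Fgfr2 over Fgfr3 (12 libraries), Fgf9 over Fgf18 (13), Fgf18 over Fgf15 (13), Fgf2 over Fgf17 (14) and Fgf17 over Fgf8 (11). Fgf15 and Fgf2 could not be ordered, since Fgf15 was the higher in 6 of the 15 libraries. The 6 secreted ligands summed to 9.43 ± 2.53 TPM and the 3 receptors to 105 ± 21.7 TPM per library. Of that receptor sum, Fgfr1 held 53.6 ± 4.22%, Fgfr2 25.9 ± 4.93% and Fgfr3 20.5 ± 3.66%.

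**Figure D1:**
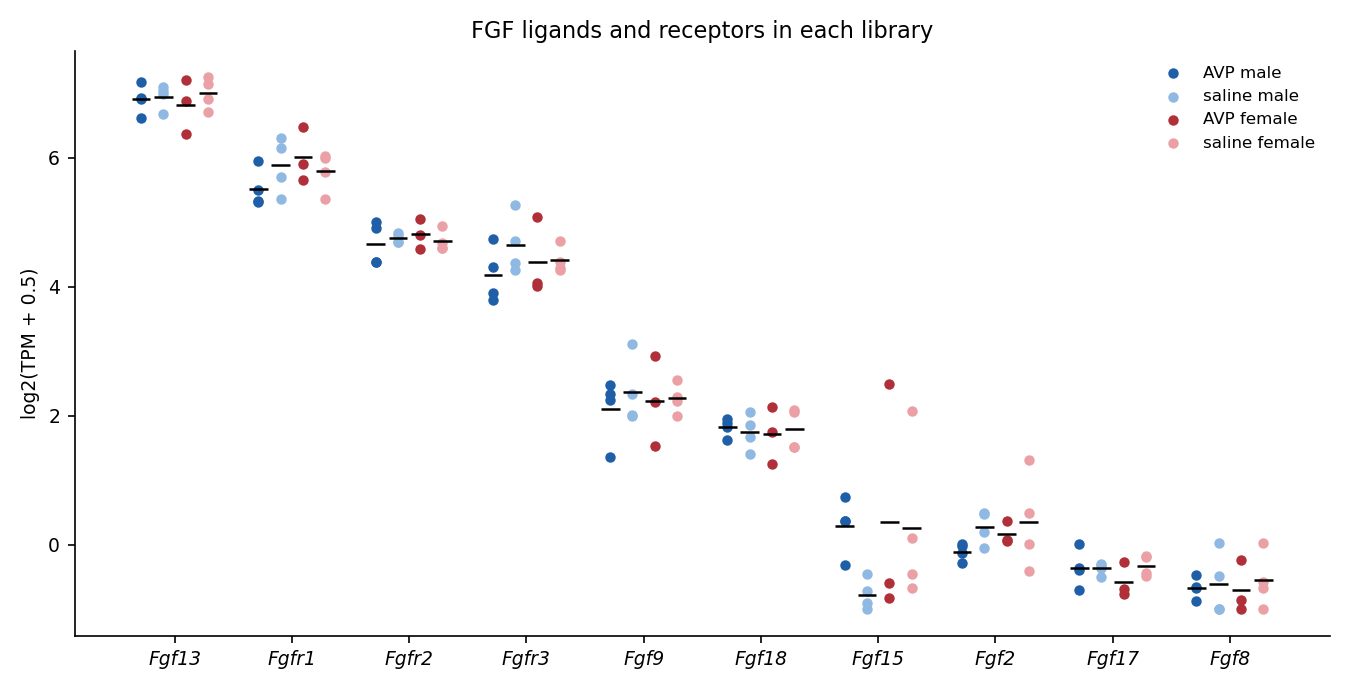
Level of each of the 10 genes in each library, as log2(TPM + 0.5) on the vertical axis, with genes ordered by their mean level and 1 point per library coloured by group. Black bars are group means; Fgf13 and the 3 receptors lie above all secreted ligands, and in Fgf15 the AVP male points lie above the saline male points while 2 female libraries stand highest.

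Several facts of the whole series touch the values below. The library labelled saline male 12 held 266 TPM of Xist, against 174 to 294 TPM in the female libraries and at most 1.13 TPM in the other males, and its 4 Y-linked transcripts summed to 0.489 TPM, against at least 102 TPM in the other males. It was kept under its label. Without it the male differences in log2(TPM + 0.5) were -0.41 for Fgf2, -0.18 for Fgf8, 0.0065 for Fgf13, 0.02 for Fgf17, 0.05 for Fgf18, -0.27 for Fgfr1 and -0.07 for Fgfr2, and those of the other members are given beside them. Markers of dorsal forebrain neurons were high in every library (sum of 6 genes, 917 to 1271 TPM), as were those of radial glia, the cortical progenitors (10 genes, 1941 to 3207 TPM), and 3 midbrain markers summed to at most 0.368 TPM. Choroid plexus markers ranged from 7.14 to 28.5 TPM in 9 libraries and from 578 to 2282 TPM in 6 libraries of all 4 groups. AVP female 10 and saline female 15 also held markers of the olfactory bulb, a list chosen after the values were seen: Cdhr1, of mitral and tufted cells, stood at 71.5 and 60.1 TPM, against 0.0675 to 1.27 TPM in the other 13 libraries. The sum over the 6 genes of that list was 189 and 136 TPM in these 2 libraries and 10.6 to 30.2 TPM in the other 13, where most of it was Calb2. Calb2 was present in all libraries, at 87.2 and 54.0 TPM in these 2 and 9.89 to 28.2 TPM in the other 13. In females 3 further marker sums did not overlap between the groups: meninges (8 genes) stood at 141 to 192 TPM after AVP and 86.0 to 106 TPM after saline, endothelium (5 genes) at 146 to 150 and 80.7 to 131 TPM, and oligodendrocyte precursors (5 genes) at 33.7 to 61.1 and 62.5 to 94.6 TPM. Taken singly, Crabp2 and Foxc1 of the meninges, Cldn5 and Flt1 of the endothelium, and Pdgfra, Sox10 and Cspg4 of the precursors overlapped. Among single genes above 0 in females, 2.25% had every AVP library above every saline library and 2.18% below. In males these 3 sums overlapped. Their part in the female differences below was not tested. In bulk tissue, fewer cells of a type and less RNA per cell cannot be told apart.

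Fgf15 was the member whose AVP-exposed and saline males did not overlap. The gene (ENSMUSG00000031073, chromosome 7, 144896531 to 144900953, plus strand of GRCm38) encodes the mouse counterpart of human FGF19, a ligand that promotes differentiation of cortical progenitors. Its TPM was 0.787, 0.791, 0.30 and 1.18 in the 4 AVP-exposed males and 0.104, 0.225, 0.0319 and 0 in the 4 saline males. Every AVP-exposed male thus lay above every saline male, with group means of 0.763 ± 0.359 TPM (SD, n = 4) and 0.0903 ± 0.10 TPM, or a ratio of 8.45. This ratio rests on saline values near 0. In AVP male 1, 0.331 TPM belonged to the retained-intron transcript Fgf15-205, listed at 0 in the other 14 libraries. Coding transcripts alone stood at 0.456, 0.761, 0.267 and 1.18 TPM in AVP-exposed males, against a highest value of 0.225 TPM in saline males. Among the 31145 genes above 0 in any male library, 0.604% had every AVP library above every saline library and 4.09% had every AVP library below. The difference in mean log2(TPM + 0.5), a scale that understates changes of low genes, was 1.06 ± 0.25 (SE), with p = 0.0286 in a two-sided exact permutation test, the smallest that 4 against 4 libraries allow. Without the library labelled saline male 12 the difference was 1.02 and the groups still did not overlap (exact permutation p = 0.0571, the smallest that 4 against 3 allow). The study named Fgf15 for males from these same samples, so its direction here is not independent evidence. Fgf15 lay under the filter on low values (1 TPM in at least 50% of the libraries) and was not among the 15271 genes tested with limma in males.

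In females Fgf15 was high in 2 libraries. The AVP-exposed females had 0.160, 5.11 and 0.0610 TPM, and the saline females 0.231, 0.576, 0.128 and 3.70 TPM. The high values belonged to AVP female 10 and saline female 15, the libraries with olfactory bulb markers, and the other 5 female libraries ranged from 0.0610 to 0.576 TPM. The groups overlapped, with a difference of 0.09 ± 1.16 in mean log2(TPM + 0.5) (exact permutation p = 1.0). Without these 2 libraries it was -0.38 ± 0.31 (p = 0.4, exact permutation test, 2 against 3 libraries). The genes whose pattern over the 15 libraries was most like that of Fgf15 were Cpne6 (r = 0.90, rho = 0.87), Scgn (r = 0.89, rho = 0.70), which marks bulb interneurons, and Cdhr1 (r = 0.89, rho = 0.65). Without the same 2 libraries r fell to 0.61, 0.44 and 0.37 over 13 libraries. Among males, which held no such library, the sum of the bulb markers was 16.7 to 19.7 TPM after AVP and 10.6 to 25.3 TPM after saline. Each gene of that marker list overlapped between the male groups. Cdhr1 stood at 0.774, 1.27, 0.912 and 0.660 TPM in AVP-exposed males and at 0.409, 0.760, 0.46 and 0.40 TPM in saline males. Tbx21 ranged from 0.0856 to 0.223 TPM after AVP and from 0.101 to 0.161 TPM after saline. Calb2 ranged from 14.8 to 18.5 TPM after AVP and from 9.89 to 23.8 TPM after saline. The part of bulb tissue in the male difference was not tested. The male minus the female difference was 0.98 on the log2 scale, which the filter left untested, and 1.44 without the 2 libraries with bulb markers.

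**Figure D2:**
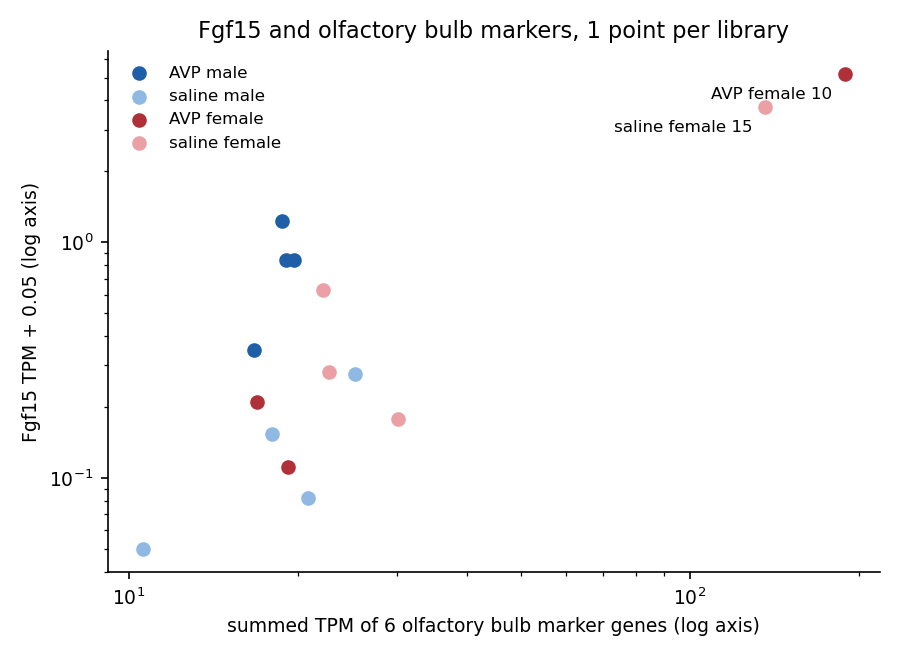
Fgf15 TPM plus 0.05 (vertical log axis) against the summed TPM of 6 olfactory bulb marker genes (horizontal log axis), 1 point per library coloured by group. AVP female 10 and saline female 15 lie apart at 189 and 136 TPM of marker sum with 5.11 and 3.70 TPM of Fgf15, while the 4 AVP males lie above the 4 saline males at marker sums of 10.6 to 25.3 TPM.

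Fgf8 and Fgf17, also ligands of the anterior midline, were below 1 TPM in every library. Fgf8 (ENSMUSG00000025219, chromosome 19, 45736798 to 45742915, minus strand), the organizer signal of the rostral forebrain, had 0.224, 0.0470, 0.127 and 0.131 TPM in AVP-exposed males and 0.521, 0.216, 0 and 0 TPM in saline males. Of all 15 libraries 4 showed no Fgf8, and the groups overlapped in both sexes. Fgf17 (ENSMUSG00000022101, chromosome 14, 70636203 to 70642268, minus strand), which patterns the frontal cortex, had 0.113, 0.275, 0.510 and 0.262 TPM in AVP-exposed males and 0.313, 0.278, 0.300 and 0.209 TPM in saline males. In females it stood at 0.12, 0.331 and 0.0865 TPM after AVP and at 0.372, 0.213, 0.237 and 0.385 TPM after saline, again overlapping. The exact permutation p was 0.83 and 1.0 for Fgf8 and Fgf17 in males, and 0.743 and 0.171 in females, where 3 against 4 libraries cannot go below 0.0571. Without the 2 libraries with bulb markers, all AVP-exposed females lay below all saline females in Fgf8, Fgf17, Fgf13 and Fgfr3, each at the 0.2 that is the smallest exact permutation p of 2 against 3 libraries. The same separation held for 14.3% of the 29262 genes above 0 in these 5 libraries. With all libraries, no member had such separated groups in females, where 2.25% of 30563 genes had every AVP library above every saline library and 2.18% below. In males no member had every AVP library below.

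Fgf18, a ligand of the cortical plate, was above 1 TPM in every library, with overlapping groups. Its TPM (ENSMUSG00000057967, chromosome 11, 33117430 to 33147400, minus strand) was 3.03, 3.35, 3.19 and 2.60 in AVP-exposed males and 2.15, 3.13, 2.69 and 3.67 in saline males, which overlapped. In females it was 3.90, 1.88 and 2.87 after AVP and 3.73, 2.37, 3.68 and 2.36 after saline. The difference was 0.07 ± 0.17 (log2, SE) in males and -0.08 ± 0.27 in females, with limma's adjusted p of 0.879 and 0.999. The total hid a variable split between 2 coding transcripts. In males Fgf18-202, with 294 coding bases, had 0.832, 1.76, 1.99 and 2.60 TPM after AVP and 0, 0, 0 and 2.57 TPM after saline (unadjusted p = 0.0413, adjusted p = 0.402, limma over 39364 transcripts). Fgf18-201, with 621 coding bases, ran the other way in these libraries, at 2.20, 1.59, 1.2 and 0 TPM against 2.15, 3.13, 2.69 and 1.10 TPM, so that the sum stayed level. Assignment of reads between overlapping transcripts is an estimate and adds to this spread.

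Fgf9 and Fgf2, the ligands that act on cortical progenitors and neurons, overlapped between groups in both sexes. Fgf9 (ENSMUSG00000021974, chromosome 14, 58070547 to 58112720, plus strand) stood at 4.21, 5.06, 4.57 and 2.06 TPM in AVP-exposed males and at 3.47, 3.53, 8.20 and 4.57 TPM in saline males. The highest value was that of the library labelled saline male 12, and the difference moved from -0.26 to -0.01 without it. In females Fgf9 ranged from 2.39 to 7.08 TPM after AVP and from 3.51 to 5.38 TPM after saline, a difference of -0.04 ± 0.32. Fgf2 (ENSMUSG00000037225, chromosome 3, 37348346 to 37410108, plus strand) had 0.322, 0.507, 0.415 and 0.480 TPM in AVP-exposed males and 0.464, 0.893, 0.647 and 0.902 TPM in saline males. Only the lowest saline male lay within the AVP range, and the difference of -0.39 ± 0.14 had p = 0.0857 in the exact permutation test. In saline females a single library, saline female 14, had 1.98 TPM, of which 1.57 TPM belonged to the retained-intron transcript Fgf2-207, listed at 0 in the other 14 libraries. The remaining female values of Fgf2 ranged from 0.257 to 0.906 TPM.

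Fgf13, the FGF homologous factor of neurons, overlapped between groups as a gene, while its transcripts from separate first exons varied widely among libraries. The gene (ENSMUSG00000031137, chromosome X, 59062145 to 59568071, minus strand) had 122, 144, 120 and 98.3 TPM in AVP-exposed males and 132, 127, 136 and 102 TPM in saline males. The females ranged from 82.1 to 148 TPM after AVP and from 104 to 152 TPM after saline. The groups overlapped, with differences of -0.04 ± 0.13 in males (adjusted p = 0.908) and -0.18 ± 0.21 in females (adjusted p = 0.999, limma). The coding part of the first exon sets the amino terminus, and the main transcripts start at 3 separate exons, so 1 stretch of each exon is shown, 5′ to 3′, with the start codon in capitals. That of Fgf13-205 lies at chrX:59567140-59567188 (GRCm38, minus strand), that of Fgf13-202 at chrX:59166013-59166040 and that of Fgf13-201 at chrX:59133877-59134063.
Fgf13-205: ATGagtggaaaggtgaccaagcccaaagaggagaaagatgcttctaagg
Fgf13-202: ATGgctttgttaaggaagtcatattcag
Fgf13-201: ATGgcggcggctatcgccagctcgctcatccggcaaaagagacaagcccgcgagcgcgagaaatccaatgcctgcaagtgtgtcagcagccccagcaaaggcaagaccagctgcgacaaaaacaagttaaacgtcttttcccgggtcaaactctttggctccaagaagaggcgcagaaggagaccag

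Fgf13-206 has the same stretch as Fgf13-205. Fgf13-203, whose annotated coding start lies within that stretch, made up 36 ± 6.84% of the gene's TPM, with a range of 24.3 to 48.3% over the 15 libraries. Fgf13-201, with the longest of these coding sequences (735 bases), made up 28.7 ± 7.81%, from 13.3% in AVP female 11 to 37.9% in saline female 14. Fgf13-202 made up 7.47 ± 7.34%, and was at or near 0 in some libraries and high in others. It stood at 0.000100, 0, 2.01 and 15.7 TPM in AVP-exposed males, at 0.594, 3.40, 12.2 and 6.06 TPM in saline males, at 0.0392, 13.3 and 19.5 TPM in AVP-exposed females and at 17.6, 4.10, 16.6 and 17.4 TPM in saline females. Its share differed by -0.09 percentage points between AVP-exposed and saline males and by 0.06 points between the female groups, far less than the spread within each. The level of Fgf13-202 went with the run of library numbers. Libraries 1 to 7 (run 1) held 0 to 4.10 TPM, apart from saline female 6 at 17.6 TPM. Libraries 8 to 15 (run 2) held 2.01 to 19.5 TPM. The part of the run in this spread was not tested. Fgf13-205 was lower in AVP-exposed females (11.9, 12 and 7.66 TPM) than in saline females (20.3, 16.4, 14.3 and 13.6 TPM), without overlap, at an unadjusted p of 0.0230 and an adjusted p of 1.0 (limma). Among transcripts above 0 in females, those under the filter included, 1.78% showed such separation.

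The receptors were the FGF genes of highest level after Fgf13, and no AVP difference of theirs passed the threshold. Fgfr1 (ENSMUSG00000031565, chromosome 8, 25513654 to 25575718, plus strand), the main FGF receptor of the cortical neuroepithelium, had 44.7, 39.1, 39.6 and 61.7 TPM in AVP-exposed males and 51.8, 79.0, 71.0 and 40.5 TPM in saline males. The groups overlapped, with means of 46.3 ± 10.6 and 60.6 ± 17.6 TPM and a difference of -0.36 ± 0.22 (adjusted p = 0.485, limma), which ranged from -0.54 to -0.22 when single libraries were left out. In females it was 50.2, 88.7 and 59.2 TPM after AVP and 54.4, 63.2, 65.0 and 40.5 TPM after saline, a difference of 0.22 ± 0.22 (adjusted p = 0.999), which turned to -0.15 ± 0.13 without the 2 libraries with bulb markers. The 4 libraries with most Fgfr1 were AVP female 10, saline male 5, saline male 12 and saline female 14. The same 4 of the 15 libraries had the highest sum of Prox1, Zbtb20, Lef1 and Wnt8b, genes of the hippocampal primordium chosen after the values were seen (18.5 to 27.3 TPM, within a range of 8.69 to 27.3 TPM over all libraries). Prox1 and Zbtb20 were each highest in these 4 libraries, while Lef1 and Wnt8b were not. Lef1 stood at 2.50 TPM in saline female 14 and 4.04 TPM in AVP female 11. Wnt8b stood at 0.0926 TPM in saline female 14 and 0.151 TPM in saline male 12, against 0.514 TPM in saline female 6. Of the 4 libraries with most Fgfr3, 2 were among those with the highest sum. The part of hippocampal primordium in the Fgfr1 level was not tested. The gene of most similar pattern was Tac2 (r = 0.98, rho = 0.96 over 15 libraries, r = 0.98 without the 2 farthest), followed by E330013P04Rik (r = 0.94) and Ifi203 (r = 0.93).

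Fgfr3, found on radial glia and later on astrocytes, was the most variable receptor. The gene (ENSMUSG00000054252, chromosome 5, 33721674 to 33737068, plus strand) had 14.5, 19.3, 13.4 and 26.2 TPM in AVP-exposed males and 20.2, 25.6, 38.0 and 18.6 TPM in saline males. The means of 18.3 ± 5.85 and 25.6 ± 8.78 TPM differed by -0.47 ± 0.26 on the log2 scale, with overlapping groups (adjusted p = 0.451). The highest value was again that of the library labelled saline male 12, without which the difference was -0.26. In females Fgfr3 was 16.1, 33.5 and 15.6 TPM after AVP and 19, 25.8, 18.6 and 20.4 TPM after saline (difference -0.03 ± 0.27, adjusted p = 0.999). Fgfr2 (ENSMUSG00000030849, chromosome 7, 130162451 to 133123350, minus strand), of progenitors, glia and choroid plexus, was the steadiest of the 10 genes, with a coefficient of variation of 14.2% over all libraries. It stood at 20.4, 20.3, 29.8 and 31.5 TPM in AVP-exposed males and at 25.5, 28.0, 27.3 and 25.4 TPM in saline males, a difference of -0.08 ± 0.15 (adjusted p = 0.835). In females it ranged from 23.6 to 32.8 TPM after AVP and from 23.8 to 30.3 TPM after saline (0.11 ± 0.15, adjusted p = 0.999).

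**Figure D3:**
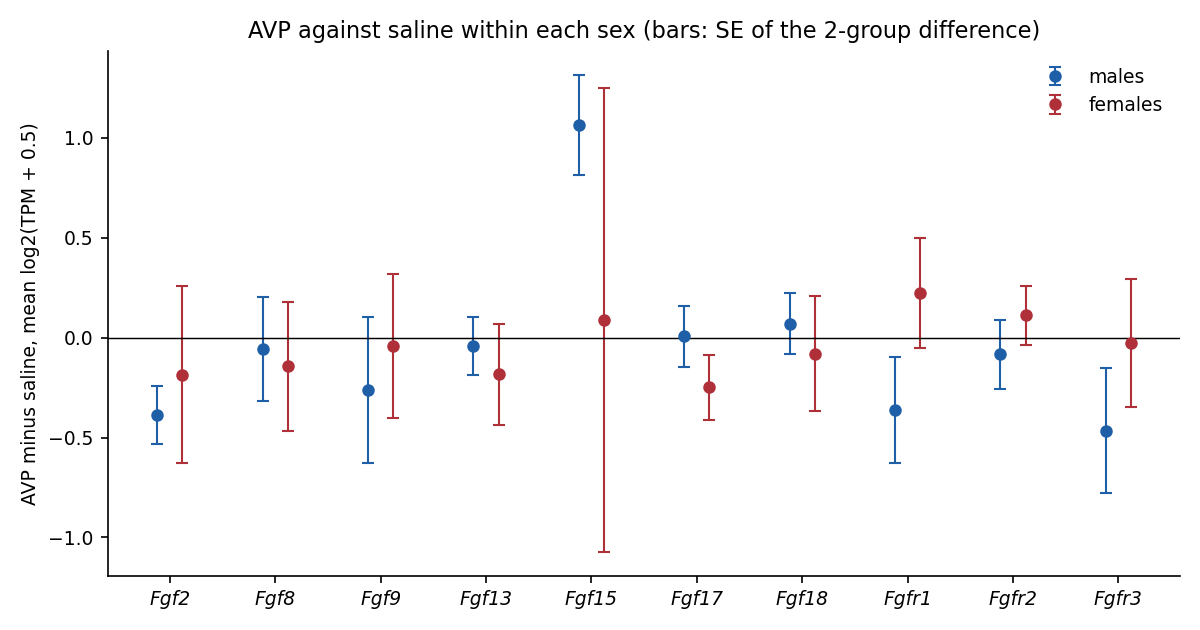
Difference between AVP-exposed and saline libraries in mean log2(TPM + 0.5) (vertical axis) for each of the 10 genes, in males (blue, 4 against 4) and females (red, 3 against 4). Bars are the standard error of the 2-group difference, computed from the 2 groups of that gene alone. For members tested with limma on all libraries of a sex, the text gives limma's standard error instead. The male Fgf15 point at 1.06 lies farthest from 0, and the female Fgf15 point at 0.09 has the widest bar.

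None of the 6 members tested passed an adjusted p of 0.05 in limma, in any comparison, and none had an unadjusted p below 0.05. The background was 0.00655% of 15271 genes called in males, 1 gene in all, and 0% in females, for the mean AVP effect over both sexes, for the difference of the AVP effect between the sexes and for sex. At an unadjusted p below 0.05 the background was 13.5% of genes in males and 4.51% in females. The lowest adjusted p of a member was 0.451 in males, 0.999 in females, 0.630 over both sexes, 0.896 for the difference between the sexes and 1.0 for sex. The fit for sex counted the library labelled saline male 12 as male, against its Xist and Y-linked values. That fit called 0 genes, so not even Xist, and 7 without that library. Its result for the members therefore cannot decide whether they differ by sex. Of the 10 members, 7 had a negative difference in males and 7 in females. The median over the members was -0.07 in males and -0.06 in females, against -0.10 and -0.05 over all genes tested. Median-of-ratios scaling, which sets the typical gene equal between libraries, moved the male median of all genes to 0.00 and turned the signs of Fgf13 and Fgfr2 in males to 0.07 and 0.03, so that neither small male difference has a direction that holds across scalings.

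The form of each receptor is set by a pair of alternative exons, IIIb and IIIc, which encode the second part of the third immunoglobulin domain and decide which ligands bind. IIIb forms are typical of epithelia and IIIc forms of mesenchyme and nervous tissue, and Fgf8, Fgf9, Fgf17 and Fgf18 bind IIIc forms and Fgfr3 in preference. The exons were found in the annotation as the pair of coding exons that replace each other between the same neighbours. Those of Fgfr3 are shown because they are what tells its transcripts apart: 5′ to 3′ on the coding strand, with capitals at the bases that differ between the IIIb and IIIc exon in a global alignment. They lie at chr5:33731281-33731431 and chr5:33732117-33732261 (GRCm38, plus strand, IIIb first).
Fgfr3 IIIb: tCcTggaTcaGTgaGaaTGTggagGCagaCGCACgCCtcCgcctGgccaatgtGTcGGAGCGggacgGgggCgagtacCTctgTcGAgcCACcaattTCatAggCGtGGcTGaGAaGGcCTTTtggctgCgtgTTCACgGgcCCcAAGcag
Fgfr3 IIIc: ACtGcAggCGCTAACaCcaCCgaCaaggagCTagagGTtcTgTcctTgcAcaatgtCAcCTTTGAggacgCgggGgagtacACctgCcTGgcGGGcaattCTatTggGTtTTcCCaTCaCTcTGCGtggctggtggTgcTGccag

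The IIIb and IIIc exons of Fgfr3 were 51.9% identical. Of the transcripts in the table, 3 of Fgfr1, 11 of Fgfr2 and 4 of Fgfr3 held only the IIIb exon, and 4, 5 and 6 held only the IIIc exon.

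IIIc forms prevailed for all 3 receptors in every library. Counting transcripts that hold either exon alone, the IIIc share was 89.4 ± 5.41% for Fgfr1 (75.0 to 94.7%), 90.9 ± 2.95% for Fgfr2 (86.1 to 95.4%) and 83.7 ± 6.88% for Fgfr3 (68.4 to 94.5%). The lowest Fgfr1 share was that of AVP female 11, and the lowest Fgfr3 share that of AVP male 8. The IIIb transcripts of Fgfr1 include Fgfr1-209, a decay-prone transcript of 139 coding bases. It held 5.25 of the 5.37 TPM of IIIb transcripts in AVP female 10 and all 1.72 TPM in saline female 15. Fgfr1 was carried mainly by Fgfr1-202 (23.8 TPM on average) and Fgfr1-201 (8.75 TPM), both with the IIIc exon. A further 16.8% of Fgfr1 TPM fell on 2 noncoding or decay-prone transcripts that hold both exons. In Fgfr2, 58.0% of the TPM fell on transcripts with neither exon, above all Fgfr2-217 (8.66 TPM), a transcript of 546 coding bases, so that the share of full receptor is smaller than the gene total. In Fgfr3 the IIIb form was Fgfr3-211 (1.96 TPM) and the main IIIc form Fgfr3-215 (5.51 TPM), while the fragment Fgfr3-217 held 4.45 TPM.

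**Figure D4:**
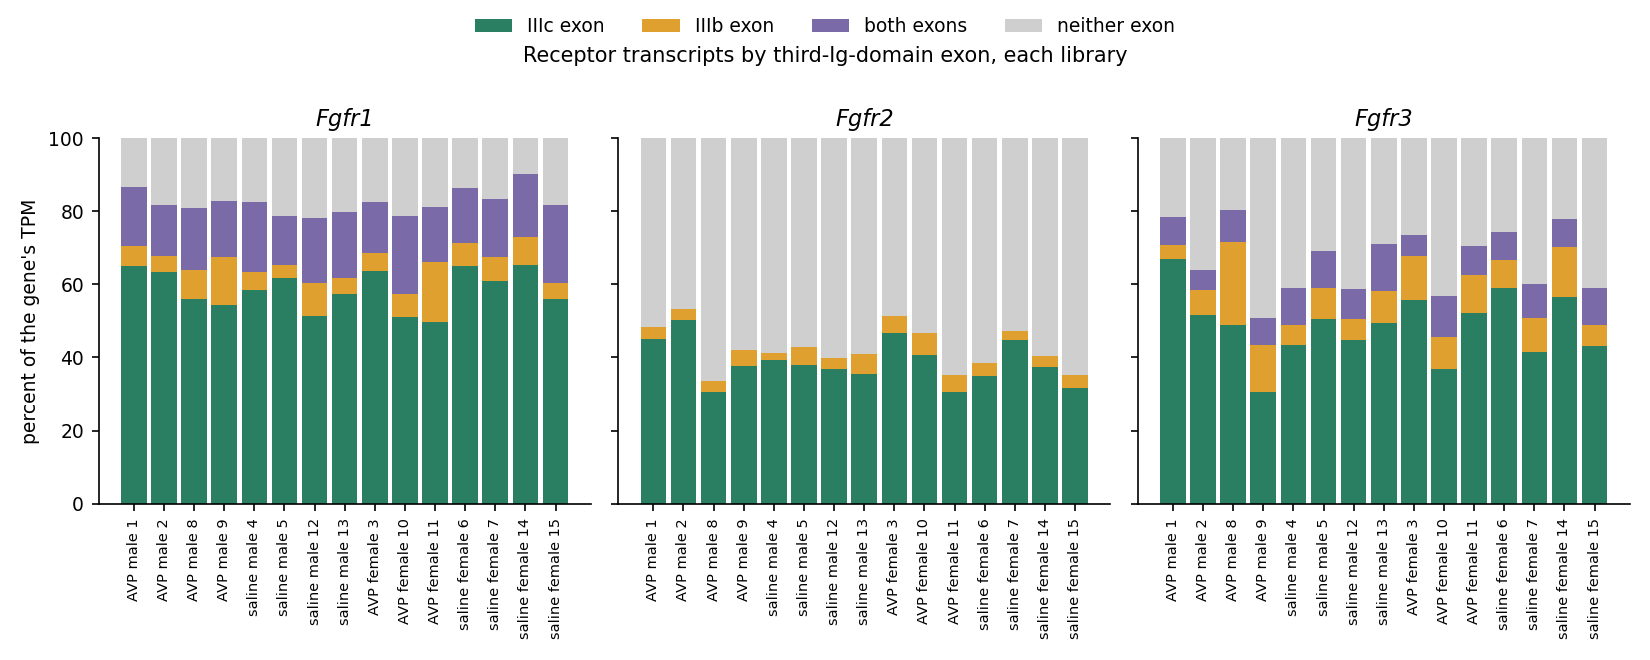
Percent of each receptor gene's TPM (vertical axis, 0 to 100%) that fell on transcripts with the IIIc exon, the IIIb exon, both or neither, 1 stacked bar per library. The IIIc segment is larger than the IIIb segment in every bar, and transcripts with neither exon average 58.0% of Fgfr2.

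Of 12 comparisons of receptor form between AVP and saline groups, 11 overlapped, and the share of the IIIb form of Fgfr2 in females did not. How often shares of forms separate over all genes was not computed. Among gene levels above 0 in females, 2.25% had every AVP library above every saline library and 2.18% below. Of 6 shares tested in each sex, as percent of the gene's TPM, the lowest p was 0.0571, for the IIIb form of Fgfr2 in females (two-sided exact permutation test, the smallest that 3 against 4 libraries allow, adjusted over the 12 tests 0.686). That share was 4.68, 6.00 and 4.67% in AVP-exposed females and 3.47, 2.56, 3.14 and 3.67% in saline females, every AVP library being the higher. The level behind it was low, at 1.29, 1.42 and 1.53 TPM after AVP and 0.828, 0.608, 0.949 and 0.925 TPM after saline. Most of it was the transcript Fgfr2-208. The IIIb form made up 5.12 ± 0.768% after AVP (SD, n = 3) and 3.21 ± 0.487% after saline (n = 4). In males the same share was 3.41 ± 0.70% after AVP and 3.89 ± 1.80% after saline (exact permutation p = 0.686). The IIIb form of Fgfr3 in AVP-exposed males ranged from 3.87 to 22.6%, which is wider than the range of any other group, so its mean of 11.5% against 7.10% after saline had an exact permutation p of 0.4. The IIIc share of Fgfr1 in females was 54.9 ± 7.76% after AVP and 61.8 ± 4.28% after saline (exact permutation p = 0.171).

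At the level of single transcripts, 32 of the 99 member transcripts passed the filter in males and 33 in females, and none was called. The background was 0.00762% of 39364 transcripts in males and 0% of 37806 in females. At an unadjusted p below 0.05, 4 member transcripts stood out in males, or 12.5% of those tested against a background of 12.1%, and 1 in females, or 3.03% against 3.06%. Without the library labelled saline male 12, 2 of the 4 kept an unadjusted p below 0.05, Fgfr1-210 (-0.84 ± 0.26) and Fgfr3-205 (-0.65 ± 0.27), while Fgf18-202 stood at 1.26 ± 0.68 and Fgfr1-216 at -0.54 ± 0.30. In males these were Fgf18-202 and 3 retained-intron transcripts of the receptors. Fgfr1-210 had 1.81, 1.4, 1.94 and 2.35 TPM in AVP-exposed males and 3.08, 4.93, 3.93 and 3.30 TPM in saline males (difference -0.86 ± 0.22, adjusted p = 0.364). Fgfr3-205 had 1.13, 1.06, 1.16 and 1.99 TPM after AVP and 2.01, 2.60, 3.12 and 2.40 TPM after saline (-0.74 ± 0.24, adjusted p = 0.371). In neither did the male groups overlap, and the same held for Fgfr1-216 (-0.60 ± 0.26, adjusted p = 0.410), whose highest AVP value was 1.95 TPM and lowest saline value 1.99 TPM. This pattern was shared by 3.71% of transcripts above 0, those under the filter included. The share among transcripts tested was not computed. In females the values of Fgfr1-210 crossed, at 0.852, 3.44 and 4.6 TPM after AVP and 0.929, 2.33, 1.32 and 1.71 TPM after saline.

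Other FGF ligands were sparse in this tissue. Of a list of 15 fixed with earlier results known, 4 passed the filter: Fgf10, of radial glia, and the homologous factors Fgf11, Fgf12 and Fgf14. None had an unadjusted p below 0.05 in either sex. Their median difference was -0.04 in males and -0.22 in females, beside -0.10 and -0.05 over all genes. Fgf10 had 2.83 ± 0.142 TPM after AVP and 2.88 ± 0.317 TPM after saline in males, and 2.21 ± 0.253 and 2.79 ± 0.220 TPM in females (difference -0.28 ± 0.18, adjusted p = 0.999). Fgfr4 and the decoy receptor Fgfrl1 were low, at 1.51 and 6.23 TPM over all libraries, and the co-receptors Klb and Kl did not pass the filter.

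Among the 15 measured feedback regulators and response genes of the pathway, all had a negative difference in males, and none was called. The median was -0.25, beside -0.10 over all genes tested, and 5 of the 15 were lower at an unadjusted p below 0.05, beside 12.4% of all genes tested that were lower at that p. Spred2, an inhibitor of Ras to Raf signalling, had 17.1, 18.8, 18.6 and 19.1 TPM in AVP-exposed males and 26.1, 20.9, 23.9 and 23.5 TPM in saline males. These groups did not overlap, with a difference of -0.35 ± 0.09 (unadjusted p = 0.00307, adjusted p = 0.304, limma). Spry4, a Sprouty inhibitor, had 2.50, 1.93, 2.05 and 2.35 TPM after AVP and 3.18, 2.68, 3.82 and 3.31 TPM after saline (-0.47 ± 0.15, adjusted p = 0.304), again without overlap. Spred3 had 11.5 ± 2.92 TPM after AVP and 15.6 ± 1.63 TPM after saline (-0.45 ± 0.18, adjusted p = 0.339). Its groups did not overlap either, with a highest AVP value of 13.97 TPM and a lowest saline value of 14.02 TPM. Among the 31145 genes above 0 in males, 4.09% had every AVP library below every saline library. That set includes genes under the filter, and the share among the 15271 genes tested was not computed. Etv5, an ETS factor induced by FGF signalling, had 19.1 ± 2.18 and 23.0 ± 2.25 TPM (-0.26 ± 0.11, adjusted p = 0.342), and Flrt1 was the remaining gene of the 5 (adjusted p = 0.359). With median-of-ratios scaling, 12 of the 15 were negative and the median was -0.15 beside 0.00, so the count of 15 rests in part on the scale of the deposited values. In that setting 2 of the 15 were lower at an unadjusted p below 0.05 (limma), beside 758 of 15275 genes tested. Without the library labelled saline male 12, 14 were negative and 2 were lower at an unadjusted p below 0.05 (limma), beside 1069 of 15051 genes tested.

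In females the same list was mixed, with 6 positive and 9 negative differences and a median of -0.03. Flrt3, a transmembrane partner of FGF receptors, had 21.9, 28.7 and 23.4 TPM after AVP and 16.5, 19.9, 21.3 and 15.6 TPM after saline, without overlap (0.42 ± 0.15, unadjusted p = 0.0248, adjusted p = 0.999). Among genes above 0 in females, those under the filter included, 2.25% had every AVP library above every saline library. In males Flrt3 was 18.5 ± 3.16 TPM after AVP and 22.2 ± 3.85 TPM after saline. Without the 2 libraries with bulb markers, 14 of the 15 genes were negative in females, with a median of -0.22 beside -0.13 over all genes tested. Of the 15, 3 were then lower at an unadjusted p below 0.05 (limma), beside 789 of 15041 genes tested, and none was called.

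The adaptors and the cortical patterning factors held no call in either sex. Of 6 adaptors, 5 were negative in males (4 with median-of-ratios scaling) and 5 in females (also 4), with medians of -0.14 and -0.04, and Frs3, a docking protein of the receptors, had 15.1 ± 3.23 TPM after AVP and 19.3 ± 3.08 TPM after saline in females (-0.35 ± 0.18, adjusted p = 0.999). Of 8 patterning factors, which FGF signals help to arrange along the cortex, 7 were negative in males with a median of -0.10, and 6 were positive in females with a median of 0.07. With median-of-ratios scaling 4 of the 8 were negative and 4 positive in males, so the count of 7 rests on the scale of the deposited values. Nr2f2, a caudal factor that FGF signals repress, was the positive gene in males on the deposited scale, at 19.8, 31.9, 20.5 and 34.5 TPM after AVP and 9.41, 25.5, 30.9 and 13.6 TPM after saline, with overlapping groups (0.52 ± 0.36, adjusted p = 0.533). Lhx2, a selector of cortical identity, had 117 ± 24.3 TPM after AVP and 143 ± 19.7 TPM after saline in males (-0.30 ± 0.15, adjusted p = 0.405).

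**Figure D5:**
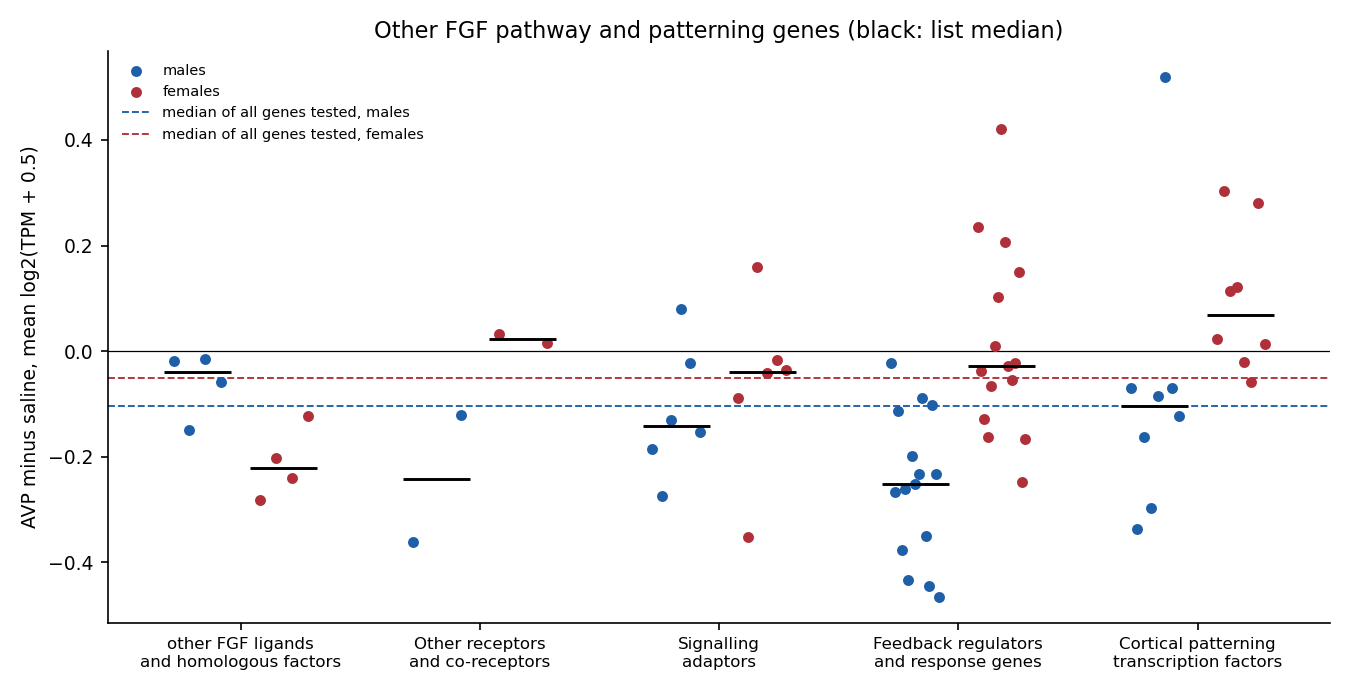
Difference between AVP-exposed and saline libraries in mean log2(TPM + 0.5) for each tested gene of 5 lists (1 point per gene), in males (blue) and females (red). Black bars are list medians and dashed lines the medians of all genes tested (-0.10 in males, -0.05 in females); the 15 male points of the feedback list all lie below 0, as TPM were deposited, and 12 of 15 do so with median-of-ratios scaling.

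The genes whose pattern over the 15 libraries was most like that of each other member are given as a description. Fgf13 went with App (r = 0.95, rho = 0.91) and Tspan7 (r = 0.93), and r with App was 0.91 over 13 libraries without the 2 farthest. Fgf9 went with Rpn1 (r = 0.89, rho = 0.76), Dsc3 (r = 0.88) and Gabrb1 (r = 0.88). Fgf17 went with Gm3739 (r = 0.91), Cntfr (r = 0.88) and Dcbld2 (r = 0.87). Fgfr2 went with Ppp2r1b (r = 0.89), Ctdp1 (r = 0.84) and Gm49686 (r = 0.83), and Fgfr3 with Dele1 (r = 0.93), Zdhhc16 (r = 0.92) and Ganab (r = 0.91). The likeness was looser for Fgf2 (Prps1l3, Pign and Pcyox1, r = 0.82 to 0.80, falling to 0.61, 0.59 and 0.67 without the 2 farthest libraries) and for Fgf8 (Gm22548, Zfp429 and Mir704, r = 0.82 to 0.75) and Fgf18 (Gm3604, Crybb1 and Lsm10, r = 0.76 to 0.72). All of these values share the library total, and each gene named was among the 3 highest of 15586 genes of at least 1 TPM on average.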

How the data were processed

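RNA of the 15 dorsal forebrains was sequenced as stranded, paired-end mRNA libraries. The authors trimmed reads with Trim Galore 0.4.1, checked them with FastQC 0.5.2 and estimated transcript abundance with kallisto 0.43.1 on GENCODE M16 (GRCm38), and deposited TPM per transcript for each library, scaled to transcript length and to the same total of 1000000. They tested with sleuth 0.29.0. The TPM hold no depth of single libraries, so no counting interval can be given, and reads shared by transcripts are split by estimate.

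Here the values of 133849 transcripts were added up per gene (53337 genes) by GENCODE M21 of the same build, in which 404 transcripts, holding 0.154 to 0.199% of a library, have no gene. Genes and transcripts reaching 1 TPM in 50% or more of a comparison's libraries were tested with limma 3.58.1 (trend) on log2(TPM + 0.5), AVP against saline in males and in females separately, and over 4 group means for the average AVP effect, its difference between the sexes and sex, with Benjamini-Hochberg adjustment over all features and a threshold of 0.05. The fits were tested on simulated data. Shares of receptor forms and the 10 members were also tested with two-sided exact permutation tests over libraries (20 for members, with no adjustment, and 12 for shares; scipy 1.17.1). Exon sequences and coordinates were read from GENCODE M21. P-values measure the spread between these libraries. Those that join the sexes take libraries of shared litters as independent.

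The members and lists were chosen with earlier results of these data known. Named were all members and their transcripts, the 3 most similar genes of each member, and from each pathway list the 3 genes of lowest p per sex, of which those with the largest differences are given. The markers of olfactory bulb and of hippocampal primordium were chosen after the values were seen, as was leaving out 2 libraries with bulb markers and the scaling of the pathway lists. Etv5 and Flrt1 were named after their values were seen. The other alternatives were the filter, the pseudocount, median-of-ratios scaling, the run of library numbers as a covariate, a single fit and leaving out each library. Spry3 of the feedback list had no gene in the table. Some exon sequences and 1 of the most similar genes are not reported here.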

Additional observations from a re-analysis of the deposited data

Results flagged for a closer look

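Of 66 groups of 4 libraries examined for a single library far from the others, 2 stood out by Dixon's criterion, which chance alone meets in about 1 in 20 groups. Fgf15 in saline female 15 stood at 3.70 TPM, against 0.128 to 0.576 TPM in the other saline females. This library also held the olfactory bulb markers, with 60.1 TPM of Cdhr1. Their part in the Fgf15 value was not tested. The share of Fgf13-202 in the gene's TPM was 16.0% in AVP male 9, against 0 to 1.67% in the other AVP-exposed males. AVP males 8 and 9 belong to run 2 of the library numbers, and AVP males 1 and 2 to run 1.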

How the results depend on the processing

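No paired analysis was possible because the library numbers in the labels are not shared between groups. The 1 gene called in males was lost (0 genes) when at least 5 TPM in every library was required, with a pseudocount of 1, with the run of library numbers as covariate and in 1 fit of all 15 libraries, and leaving out single libraries gave 0 to 6. For females, both sexes, interaction and sex the count of 0 became 0 to 6, 0 to 3, 0 to 1 and 0 to 7 (the 7 without the library labelled saline male 12) when single libraries were left out. Without the 2 libraries with bulb markers it was 1 for both sexes and 2 for sex, and with a pseudocount of 0.1 it was 1 for sex. The 3 transcripts called in males became 0 without a filter, 0 at 5 TPM, 1 with a pseudocount of 1, 5 with median-of-ratios scaling and 0 to 11 without single libraries, and those in females 0 to 1. No member gene was called in any of the gene fits. Median-of-ratios scaling moved the share of higher genes among those with an unadjusted p below 0.05 from 8.22% to 56.9% in males, from 9.07% to 41.4% over both sexes and from 39.1% to 64.6% for the interaction.

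Among members, median-of-ratios scaling turned the male difference of Fgf13 to 0.072 and of Fgfr2 to 0.027 and the female difference of Fgfr3 to 0.0018. Without the 2 libraries with bulb markers Fgf18 in females was 0.058 and Fgfr1 was -0.15. Leaving out single libraries gave male ranges of -0.13 to 0.055 for Fgf13, -0.044 to 0.17 for Fgf18 and -0.19 to 0.014 for Fgfr2. The female ranges were -0.39 to 0.30 for Fgf9, -0.38 to 0.044 for Fgf13, -0.29 to 0.15 for Fgf18, -0.0090 to 0.40 for Fgfr1, -0.0089 to 0.22 for Fgfr2 and -0.38 to 0.16 for Fgfr3. The male Fgf15 difference was 2.21 with a pseudocount of 0.1, 0.67 with 1, and 0.91 to 1.27 without single libraries. The share differences ranged over -0.767 to 5.04 points (Fgfr1 IIIb, females), -1.15 to 0.126 (Fgfr2 IIIb, males), -1.57 to 6.45 (Fgfr2 IIIc, females), -3.32 to 8.73 (Fgfr3 IIIc, males) and -5.49 to 3.97 (Fgfr3 IIIc, females). For these changes the cause was not tested. The deposited TPM hold no depth, which limits what can be said of Fgf2, Fgf8, Fgf15 and Fgf17.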
